A study of Mus musculus with 6 samples.

Results

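The 10 genes described here are the D cyclins Ccnd1, Ccnd2 and Ccnd3, the cyclin-dependent kinase inhibitors Cdkn1a, Cdkn1b, Cdkn2c and Cdkn2d, the retinoblastoma gene Rb1, and the antiproliferative genes Btg1 and Btg2. They were taken by symbol from the 24568 gene rows of one count matrix, and all 10 had a row. They were chosen for their known roles, at a time when earlier results of these data were known.

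The study profiled single cells of the fetal mouse small intestine with MULTI-seq, in which lipid-anchored DNA barcodes mark the cells of a tissue piece before pooling, and with droplet capture of transcript 3′ ends. All 6 samples came from C57/BL6-labelled mice carrying Pdgfra-H2BGFP, a nuclear GFP reporter of Pdgfra, and no group lacked the reporter. Intestines of replicate embryos were pooled and cut into pieces of 2.5 mm, at embryonic days E13.5, E14.5, E15.5, E16.5 and E18.5. For E15.5 with E16.5 there were 2 wells of live cells, negative for DAPI and for the red-cell marker Ter119, and 1 well enriched for cells with high PDGFRA-GFP, EPCAM, CD31 or CD45. The same 2 live wells and 1 enriched well were made for E13.5, E14.5 and E18.5 together.

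The matrix held 13127 cells, and its barcodes carried 6 suffixes. A final 1 or 2, here called ending A or B, followed a suffix number from 1 to 3, which gives the sets A1, A2, A3, B1, B2 and B3. No label assigns a suffix to a well, an age or an embryo. The matrix was therefore treated as 1 sample. The sets are technical groups and not replicates, no hypothesis test was made, and every interval below is a 95% interval for counting error only. Endings A and B also differed in gene list, with 17403 symbols counted in both (all 10 genes among them), so levels were compared within an ending. Of the 16-base barcodes, 22 occurred under more than 1 suffix.

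Kept cells numbered 12630, with a median of 7070 to 13574 unique molecular identifiers (UMIs, counted transcript molecules) per cell in the sets of ending A and 3548 to 4182 in those of ending B. Most cells carried mesenchymal transcripts: a Col1a1 UMI was present in 95.2% of cells at full depth. With each cell thinned to 2000 UMIs the share was 80.7%, with 65.2% in A3 and 70.1% in B3. The sets A3 and B3 stood apart. Their Pdgfra level was 939 and 408 CPM (UMIs of a gene in 1000000 UMIs), against 105 to 173 CPM in the other 4 sets, and after thinning each cell to 2000 UMIs a Mki67 or Top2a UMI was found in 22.0% and 9.74% of their cells, against 31.1% to 46.3%. The 7 mesenchymal markers, Pdgfra among them, were nevertheless lower in sum in these sets, at 5640 CPM in A3 and 3759 in B3, against 6625 to 8310 elsewhere. Summed CPM of 10 epithelial markers was 441 in A3 and 123 in B3, against 48.5 to 61.5 elsewhere. The 8 endothelial markers summed to 95 and 74.6 CPM against 27.5 to 33.9, and the 8 blood-lineage markers to 128 and 97.8 CPM against 21.4 to 40.5. The 6 smooth muscle markers were lower in A3 and B3, at 552 and 214 CPM against 1116 to 1599. Haemoglobin and the other red-cell genes, 5 in all, summed to 3566 CPM in B3, to 1799 and 1650 CPM in B1 and B2, and to 41.7 CPM or less in ending A. The part of these other transcripts in the results on A3 and B3 was not tested.

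D cyclins bind and activate the kinases CDK4 and CDK6, which phosphorylate the retinoblastoma protein. That protein otherwise holds E2F transcription factors back from the genes of S phase. The CIP/KIP inhibitors, encoded by Cdkn1a and Cdkn1b, act mainly on CDK2 complexes and also bind cyclin D complexes. The INK4 inhibitors, encoded by Cdkn2c and Cdkn2d, bind CDK4 and CDK6 directly. Btg1 and Btg2 encode cofactors of the CCR4-NOT deadenylase that slow cell proliferation. In the fetal gut wall, cell division and its arrest accompany the formation of villus mesenchyme clusters, which express Pdgfra strongly.

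In the results below, Btg2 went with immediate early genes and its relative Btg1 much less. The 250 bases before the RefSeq start of each gene (GRCm38.p6) are shown because the letters TGACGTCA, the palindromic cAMP response element through which many immediate early genes are controlled, occur for Btg2 and not for Btg1. Capitals mark every TGACG on either strand. In the palindrome a copy on each strand overlaps the other. The Btg2 window lies on the minus strand of chromosome 1 at chr1:134079156-134079405, and the Btg1 window on the plus strand of chromosome 10 at chr10:96616751-96617000.
Btg2: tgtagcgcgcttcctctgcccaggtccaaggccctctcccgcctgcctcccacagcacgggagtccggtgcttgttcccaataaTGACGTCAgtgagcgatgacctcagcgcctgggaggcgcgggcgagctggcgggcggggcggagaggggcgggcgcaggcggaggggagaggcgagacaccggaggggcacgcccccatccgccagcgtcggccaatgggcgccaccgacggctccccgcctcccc
Btg1: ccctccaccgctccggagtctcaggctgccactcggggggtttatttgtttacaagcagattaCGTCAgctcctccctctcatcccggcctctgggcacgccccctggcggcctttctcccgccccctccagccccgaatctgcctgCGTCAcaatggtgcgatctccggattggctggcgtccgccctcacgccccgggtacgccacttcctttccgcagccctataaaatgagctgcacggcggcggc
The palindrome of Btg2 began 166 bases before the start. Btg1 had separate TGACG letters 187 and 103 bases before its start. Among all 32851 RefSeq windows of this length, 1.55% held TGACGTCA and 17.8% held TGACG on either strand. A match is a description of these letters and not of a bound factor. Whether the letters have a part in the levels of Btg1 and Btg2 was not tested.

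Of the 10 genes, 7 had a RefSeq promoter window, and TGACGTCA was in that of Btg2 alone. Neither the E2F forms TTTCCCGC, TTTCGCGC, TTTGCCGC and TTTGGCGC nor the letters TTTGAA of the cell-cycle homology region were in any of the 10 windows of these 7 genes on either strand, counting 250 bases before to 50 after the start. Over all windows these occurred in 2.26% and 17.9%.

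Ccnd2 was the main D cyclin by UMIs in every set. It made up 71.0% to 75.2% of the UMIs of the 3 D cyclins in ending A and 80.0% to 84.6% in ending B. Ccnd3 gave 13.8% to 21.4% and Ccnd1 only 1.64% to 7.71%. UMIs here come from 3′ ends and do not scale with transcript length, but capture may differ between genes.

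Ccnd1, the D cyclin most responsive to growth factors and lying on chromosome 7 (GRCm38, chr7:144929931-144939925, minus strand), stood at 97.3 CPM in A1, 102 in A2 and 35.0 in A3. In ending B it stood at 39.9 CPM in B1, 34.6 in B2 and 21.2 in B3. Set 3 was thus the lowest of its ending in both endings, with intervals that did not meet those of sets 1 and 2. The log2 ratio of A3 to A1 and A2 was -1.51 (interval -1.67 to -1.35), a level 2.84-fold lower, and that of B3 to B1 and B2 was -0.81 (-1.05 to -0.57), 1.75-fold lower. The share of cells with a Ccnd1 UMI at 2000 UMIs per cell was likewise lowest in set 3: 15.7%, 15.4% and 4.86% in A1, A2 and A3, and 6.24%, 5.47% and 3.63% in B1, B2 and B3.

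Ccnd2 (chr6:127125162-127152193, minus strand) was at 943 CPM in A1, 937 in A2 and 783 in A3, and at 1019 CPM in B1, 1035 in B2 and 1096 in B3. It was lowest in A3 of ending A and highest in B3 of ending B, by small ratios (log2 -0.26, interval -0.30 to -0.23, and 0.093, interval 0.06 to 0.13). The median gene shifted by 0.12 on the log2 scale between B3 and B1 with B2, so the B3 ratio of Ccnd2 turned to the other sign once centred on that gene. Ccnd3 (chr17:47505051-47599691, plus strand) was at 268, 281 and 223 CPM in A1, A2 and A3 and at 215, 196 and 178 CPM in B1, B2 and B3. Its log2 ratios were -0.30 (-0.37 to -0.23) and -0.20 (-0.29 to -0.12), both within 1.5-fold.

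Cdkn1a, the inhibitor induced by p53 (chr17:29090976-29100727, plus strand), was rare, with 3.24 CPM in A1, 4.66 in A2 and 14.8 in A3, and 6.87 CPM in B1, 5.54 in B2 and 11.5 in B3. It was highest in set 3 of each ending. The log2 ratios were 1.91 (1.59 to 2.22) and 0.89 (0.50 to 1.29), from 137 and 94 UMIs in A3 and B3. Cdkn1b (chr6:134920401-134925513, plus strand) is the CIP/KIP gene long associated with leaving the cycle. Its level was 81.5 CPM in A1, 82.0 in A2 and 138 in A3, and 52.7 CPM in B1, 55.6 in B2 and 86.7 in B3. Sets 1 and 2 were alike in each ending and set 3 stood above both, by log2 0.76 (0.67 to 0.85) and 0.68 (0.54 to 0.81). The B3 ratio came to 0.56, just under 1.5-fold, when centred on the median gene.

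Cdkn2c (chr4:109660876-109667189, minus strand) had the largest relative drop in B3. It was at 11.6, 10.0 and 5.28 CPM in A1, A2 and A3, and at 7.77, 7.95 and 1.58 CPM in B1, B2 and B3, where only 13 UMIs were counted. The log2 ratios were -1.04 (-1.49 to -0.62) and -2.31 (-3.25 to -1.50). Cdkn2d (chr9:21288410-21291407, minus strand) did not follow it: 37.9, 36.3 and 36.6 CPM in ending A and 27.9, 28.4 and 33.0 CPM in ending B, with ratios of -0.02 (-0.19 to 0.15) and 0.23 (0.02 to 0.44). Rb1 (chr14:73183673-73325822, minus strand) was at 8.61, 7.73 and 13.6 CPM in A1, A2 and A3 and at 5.08, 7.68 and 12.2 CPM in B1, B2 and B3, with log2 ratios of 0.73 (0.43 to 1.01) and 0.92 (0.53 to 1.30).

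Btg1 (chr10:96617006-96622809, plus strand) was at 335, 338 and 418 CPM in A1, A2 and A3 and at 629, 595 and 802 CPM in B1, B2 and B3. Btg2 (chr1:134075170-134079120, minus strand) was at 255, 299 and 465 CPM in ending A and at 148, 153 and 211 CPM in ending B, in the same order. Both were highest in set 3 of each ending. Btg2 was 0.75 (0.70 to 0.80) higher in A3 and 0.49 (0.40 to 0.57) higher in B3 on the log2 scale, and Btg1 0.31 (0.26 to 0.36) and 0.39 (0.35 to 0.43).

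**Figure D1:**
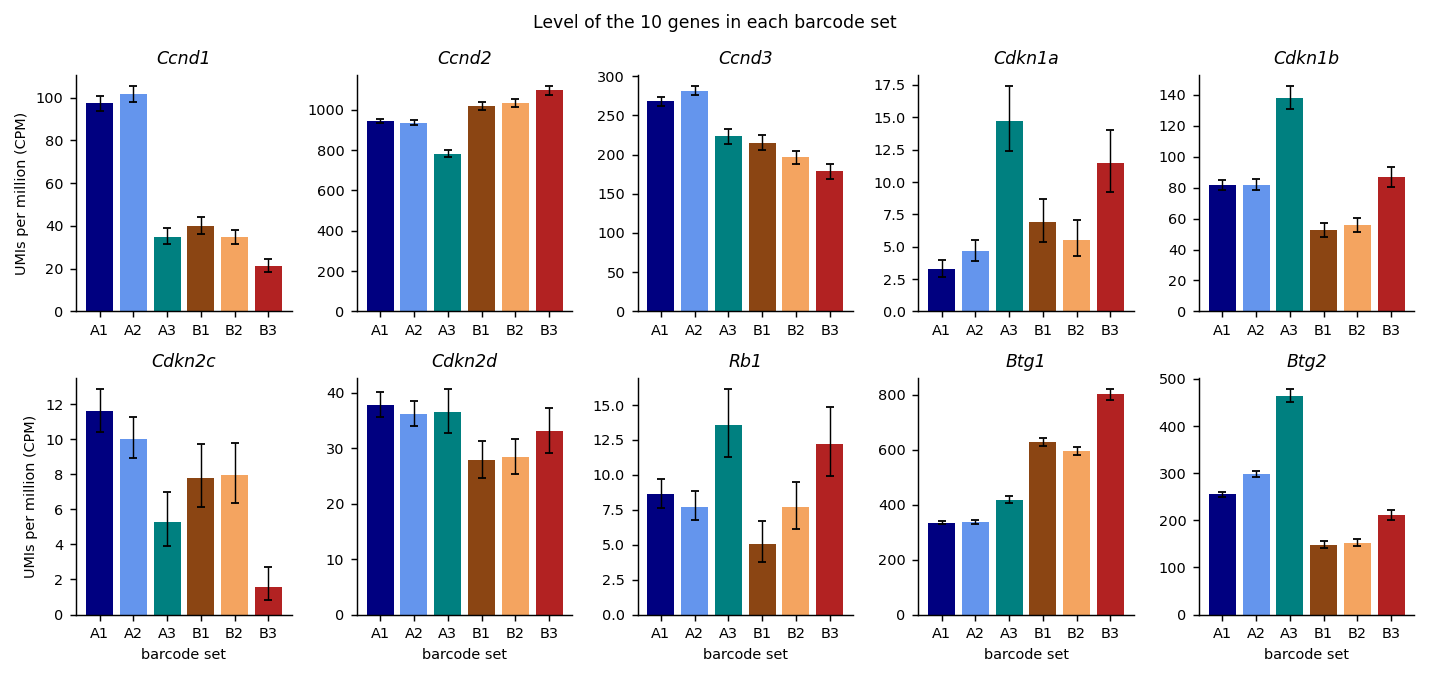
Level of each gene (y axis, CPM, each panel on its own scale from 0) in the 6 barcode sets (x axis), over all kept cells, with exact 95% counting intervals as error bars. Ccnd1, Ccnd3 and Cdkn2c are lowest, and Cdkn1a, Cdkn1b, Rb1, Btg1 and Btg2 are highest, in set 3 of both endings, while Ccnd2 is lowest in A3 and highest in B3.

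A ratio was counted as a call when it was at least 1.5-fold and the gene reached 20 CPM on one side, which 7 of the 10 genes did (not Cdkn1a, Cdkn2c and Rb1). A gene could thus enter by its higher side alone, for members and for all genes alike. In A3, 2 were higher (Cdkn1b and Btg2), where 17.1% of 7417 genes were higher, and 1 was lower (Ccnd1), where 15.9% were lower. In B3, 1 was higher (Cdkn1b) and 1 lower (Ccnd1), against 21% and 11.2% of 6410 genes. These counts are near the shares of all genes and say nothing particular of the set of 10. The median log2 ratio of the 7 was -0.02 in A3 and 0.23 in B3, beside -0.05 and 0.12 over all genes.

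Fewer cycling cells in A3 and B3 moved with these ratios, so they were taken again in cells without a Mki67 or Top2a UMI at 2000 UMIs per cell. This did not leave out every cycling cell. At full depth 68.5%, 70.4% and 41.4% of cells in A1, A2 and A3 held such a UMI, and 39.9%, 39.0% and 13.48% in B1, B2 and B3. Of the 2153 cells with S-phase transcripts only (a class defined below), where pooled Ccnd1 was highest, 17.8% held one after thinning. Differences of phase were therefore not removed from the ratios that follow. Ccnd1 remained lower, at 31.7 CPM in A3 against 111 in A1 with A2 (log2 -1.81, -2.23 to -1.42) and 18.8 CPM in B3 against 33.1 in B1 with B2 (-0.81, -1.21 to -0.42). Cdkn1b was 138 against 69.5 CPM (0.99, 0.75 to 1.23) and 85.0 against 54.8 CPM (0.63, 0.41 to 0.85). Cdkn2d, close to level over all cells, was higher in both: 26.2 against 17.4 CPM (0.59, 0.05 to 1.11) and 29.0 against 14.1 CPM (1.04, 0.63 to 1.45). Ccnd2 was lower in both, by -0.49 (-0.57 to -0.40) and -0.12 (-0.17 to -0.07), so its sign in B3 depended on which cells were compared. Btg2 stayed higher but under 1.5-fold, by 0.46 (0.35 to 0.58) and 0.44 (0.31 to 0.57), so its call in A3 was lost, and Cdkn2d, just past 1.5-fold, was called in its place. Btg1 was higher by 0.13 and 0.27, and Ccnd3 lower by -0.29 and -0.34. Of the rare genes, Cdkn1a was higher by 2.57 (1.58 to 3.64) and 0.91 (0.27 to 1.56) and Rb1 by 1.08 (0.29 to 1.85) and 1.08 (0.41 to 1.76), while Cdkn2c had 2 UMIs in A3 and 1 in B3. Here 18.7% and 20.5% of genes were higher and 17.5% and 8.65% lower. In these cells Cdkn2d reached 20 CPM only in A3 and B3, and in ending B Ccnd1 did so only in B1 with B2.

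Cells were next matched on Pdgfra UMIs (0, 1 or at least 2) and on cycling UMIs together, with ratios pooled over these strata. The match was coarse: over the strata Pdgfra was still 0.34 (0.23 to 0.46) higher and Mki67 -0.34 (-0.53 to -0.15) lower in A3, and Top2a -0.51 (-0.64 to -0.37) lower in B3. Ccnd1 was still lower, by -1.65 (-2.07 to -1.23) in A3 and -0.60 (-0.98 to -0.23) in B3. Cdkn1b was higher by 0.64 (0.39 to 0.89) and 0.58 (0.38 to 0.78), the latter just under 1.5-fold, and Btg2 by 0.57 (0.44 to 0.70) and 0.47 (0.34 to 0.59), both under 1.5-fold. Cdkn1a was higher by 1.95 (1.09 to 2.82) and 0.86 (0.31 to 1.40). Ccnd2 was lower by -0.38 and -0.07 and Ccnd3 by -0.34 and -0.27, and Btg1 was higher by 0.26 and 0.24. Rb1 had ratios of 0.43 (-0.41 to 1.28) and 1.14 (0.53 to 1.74) and Cdkn2c of -1.18 (-2.41 to 0.04) and -0.77 (-1.93 to 0.39). In A3 the calls were Cdkn1b upward, beside 15.8% of genes, and Ccnd1 downward, beside 1012 of 7496 genes, and in B3 Cdkn2d upward (0.83, 0.47 to 1.18), beside 17.7%, and Ccnd1 downward, beside 7.55%. With cells carrying an Epcam, Pecam1 or Ptprc UMI left out, the calls named the same genes as over all cells.

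**Figure D2:**
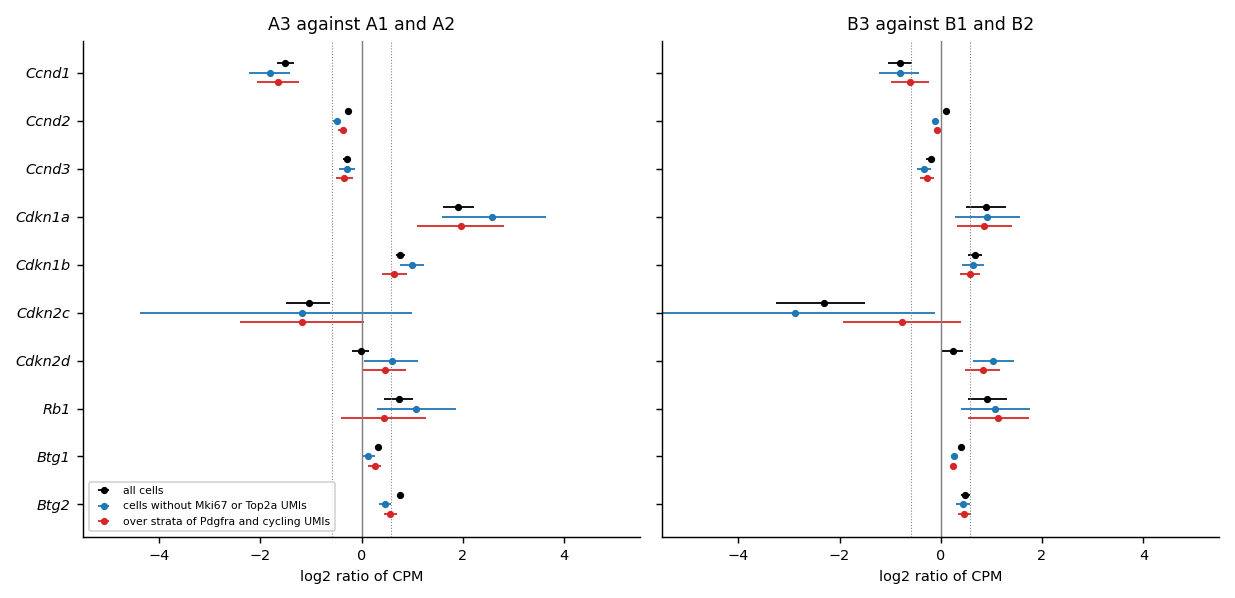
Log2 ratio of CPM (x axis) of each gene (y axis) in A3 against A1 and A2 (left) and B3 against B1 and B2 (right), over all cells (black), in cells without Mki67 or Top2a UMIs (blue) and pooled over strata of Pdgfra and cycling UMIs (red). Bars are 95% counting intervals, bars past the axis end are cut at it, and dotted lines mark 1.5-fold. Ccnd1 lies left of 0 and Cdkn1b right of 0 in all 6 comparisons, and Cdkn2d lies further right in cells without cycling UMIs and over the strata.

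Other genes of the G1/S network, from a list of 36, were counted by the same rule. In A3, 4 of the 31 that reached 20 CPM were higher and 16 lower, where 17.1% of all genes were higher and 15.9% lower. The highest were Cdkn1c, the third CIP/KIP inhibitor, at 1622 against 837 CPM (log2 0.95), Tob1 (0.82) and Tob2 (0.59), relatives of the Btg genes, and Rbl2 (0.65), a relative of Rb1. The lowest were Mycn (-1.85), Ccne1 (-1.69), E2f8 and Myc (both -1.55). In B3, 4 of 23 were higher, led by Cdkn1c (1.09) and Ccng2 (0.87) with Tob1 (0.81) and Tob2 (0.66), and 9 were lower, led by Ccne2 (-2.11), Ccna2 (-1.38), Cdkn3 (-1.26) and Ccne1 (-1.24), where 21% of all genes were higher and 11.2% lower. The counts higher thus lay near or under the shares of all genes. Cdk4, the kinase partner of the D cyclins, was at 316 against 604 CPM in A3 (-0.94) and at 315 against 337 CPM in B3 (-0.10). Cdkn2a and Cdkn2b, the other INK4 genes, had at most 31 UMIs on either side of these comparisons.

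Across cells of all sets, a Mki67 or Top2a UMI marks dividing cells, mostly in S, G2 or M phase. There were 4050 such cells and 8539 without, each thinned to 2000 UMIs; before thinning their median UMIs per cell were 9726 and 4536. Ratios were pooled over the 6 sets. Among the 7 members with 20 CPM, Cdkn2d had the largest gain: 50.5 CPM with cycling UMIs and 19.8 without them, or 1.54 on the log2 scale (1.31 to 1.76), and higher in 6 of 6 sets with an interval above 0 in each. By set it went from 16.3 to 48.4 CPM in A1, from 18.8 to 46.7 in A2 and from 26.2 to 71.7 in A3. In ending B it went from 14.4 to 48.5 CPM in B1, from 13.9 to 48.8 in B2 and from 29.0 to 66.0 in B3. The levels with and without cycling UMIs did not overlap over the 6 sets. A second random thinning gave a pooled ratio of 1.18, below the counting interval, which does not hold the spread between thinnings.

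Cdkn2c was found mostly in cycling cells, with 131 UMIs in them and 27 in the larger number of other cells. In CPM this was 16.2 and 1.58, or 3.00 on the log2 scale (2.39 to 3.61), and higher in 6 of 6 sets. Its level did not reach 20 CPM and it is outside the count of calls. Cdkn1b was slightly higher in cycling cells, at 85.2 against 74.9 CPM (0.28, 0.14 to 0.42, higher in 5 of 6 sets).

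Ccnd2 went the other way. Its level was 1143 CPM without cycling UMIs and 693 with them, which is -0.73 on the log2 scale (-0.78 to -0.69). It was lower in 6 of 6 sets: from 1170 to 700.1 CPM in A1, from 1089 to 705 in A2, from 810 to 626 in A3, from 1248 to 654 in B1, from 1242 to 689 in B2 and from 1146 to 828 in B3. Ccnd3 was lower by a smaller margin in 6 of 6 sets (-0.25, -0.33 to -0.17). Ccnd1 did not have the same sign in every set: the pooled ratio was -0.42 (-0.59 to -0.25), with 4 sets lower and 2 higher. The interval lay below 0 in 2 of the lower sets and spanned 0 in both higher sets. The values of Ccnd1 in the 4 stages below show where the levels part.

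Btg2 was lower in cycling cells in 6 of 6 sets (207 against 272 CPM, -0.48, -0.56 to -0.39) and Btg1 in 5 of 6 (436 against 589 CPM, -0.20, -0.26 to -0.14). In A3 Btg1 was higher in cycling cells, at 467 against 396 CPM (0.24), with an interval above 0. Cdkn1a (0.00, -0.52 to 0.53) and Rb1 (0.27, -0.16 to 0.70) had intervals that spanned 0, from 44 and 69 UMIs in cycling cells. Among the 7 genes with 20 CPM, 1 was called higher (Cdkn2d), against 6.86% of 6753 genes, and 1 lower (Ccnd2), against 3.09%. Cdkn2d reached 20 CPM only in the cells with cycling UMIs. The median log2 ratio of the 7 was -0.25, against 0.00 over all genes. Of the G1/S network, 15 of 26 were higher and 0 lower, led by Ccna2 (3.07), E2f7 (2.63), E2f8 (2.60) and Cdkn3 (2.50).

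A finer division used 24 S-phase genes and 24 G2/M genes. Cells with at least 3 UMIs of the S list only numbered 2153, of the G2/M list only 1182, of both lists 2358, and of neither 6896. The classes are ranges of a count and not cell types, and the lists hold none of the 10 genes. Median UMIs per cell before thinning were 4141 in neither, 9054 in S only, 13146 in both and 8197 in G2/M only. Pooled levels over the 6 sets are given first, then the ratios within sets.

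Ccnd1 was highest in cells with S transcripts only: 111 CPM, against 33.1 in cells with neither list, 65.1 with both and 32.6 with G2/M only. In A1 the levels of neither, S only, both and G2/M only were 71.5, 161, 86.5 and 58.8 CPM, and in A2 they were 58.9, 169, 83.3 and 34.5 CPM. In A3 they were 25.6, 66.7, 33.0 and 8.20 CPM, and in B1 35.1, 54.0, 28.9 and 19.1 CPM. In B2 they were 26.3, 44.3, 36.1 and 16.2 CPM, and in B3 16.8, 36.4, 55.6 and 37.7 CPM. The S-only class was the highest in every set but B3, where the class with both lists, of 63 cells, was higher. Against neither, S only was higher in 6 of 6 sets, with every interval above 0 and a pooled log2 ratio of 1.17 (0.97 to 1.37). Here 4.42% of 6667 genes were at least 1.5-fold higher and 4.2% lower, and Ccnd1 was the 1 call among the 7 genes. From S only to G2/M only it was lower by -1.68 (-2.02 to -1.33) pooled, and in 5 of 6 sets.

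Ccnd2 was also highest in S-only cells and dropped from there: 1100.4 CPM in neither, 1322 in S only, 649 in both and 512 in G2/M only. S only was above neither in 6 of 6 sets (0.27, 0.22 to 0.31), and G2/M only was below S only in 6 of 6 sets (-1.37, -1.46 to -1.28). The lowest S-only level of any set was 957 CPM, in A3, and the highest G2/M-only level was 631 CPM, also in A3, so the classes did not overlap. Ccnd3 moved little, with 227, 267, 212 and 206 CPM in the same order of classes and a log2 ratio of -0.35 (-0.50 to -0.19) from S only to G2/M only.

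The INK4 genes followed the G2/M list. Cdkn2d was at 22.1 CPM in neither, 15.3 in S only, 50.9 in both and 57.5 in G2/M only. From S only to G2/M only it was higher in 6 of 6 sets (1.92, 1.49 to 2.34), from 18.4 to 54.2 CPM in A1, 15.4 to 64.7 in A2, 33.3 to 57.4 in A3, 12.8 to 63.6 in B1, 11.4 to 46.9 in B2 and 6.62 to 75.5 in B3. Cdkn2c was at 1.38, 1.86, 17.6 and 20.3 CPM over the 4 classes (S only to G2/M only 3.46, 2.37 to 4.54). In A3 it had no UMI in the 61 G2/M-only cells and 5 UMIs in the 91 cells with both lists, and in B3 the reverse, 5 UMIs in 53 cells and none in 63.

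Cdkn1b, pooled over the sets, had its low point in S-only cells: 82.4 CPM in neither, 55.7 in S only, 77.6 in both and 96.0 in G2/M only. Within sets, S only was below neither in 5 of 6, with an interval below 0 in 3. In B1 the class with both lists was slightly lower (51.2 against 52.6 CPM in S only), and in B3 neither was (86.9 against 92.7 CPM). The Cdkn1b ratio of G2/M only to S only was 0.85 (0.59 to 1.12), higher in 6 of 6 sets. Cdkn1a and Rb1 had too few UMIs for an order of the classes within sets. Btg2 was highest in neither, at 289 CPM, with 227 in S only, 184 in both and 209 in G2/M only. The pooled levels of Btg1 were 632, 445, 385 and 483 CPM, but these mix sets of unequal level: G2/M only was below neither in the 3 sets of ending B and above it in those of ending A, at 372 against 359 CPM in A1, 386 against 378 in A2 and 590.2 against 402 in A3. S only was below neither in 6 of 6 sets for Btg2 (-0.56, -0.66 to -0.45) and in 5 of 6 for Btg1 (-0.23, -0.31 to -0.16). Immediate early genes as a list, pooled over the sets, were also highest in neither, at 4201 summed CPM against 3452 to 3651 in the other 3 classes, and their part in the Btg2 levels was not tested.

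Between G2/M only and S only, 8 genes reached 20 CPM, of which 3 were called higher (Cdkn1b, Cdkn2c and Cdkn2d), against 5.4% of 6597 genes, and 2 lower (Ccnd1 and Ccnd2), against 4.32%. The median of the 8 was 0.01, beside 0.02 over all genes. Cdkn2c and Cdkn2d reached 20 CPM only in the G2/M-only cells, the side where they were high, so their calls are not independent of that filter. In the G1/S network 6 of 23 were higher, led by Cdkn3 (4.57), Ccna2 (3.47), Ccng2 (1.32) and Cks1b (1.06), and 7 lower, led by E2f1 (-2.72), Ccne2 (-2.62), Ccne1 (-1.90) and Cdk2 (-1.12). The late-G1 cyclin E genes and E2f1 thus went with Ccnd1 and Ccnd2, and Ccna2 with the INK4 genes.

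**Figure D3:**
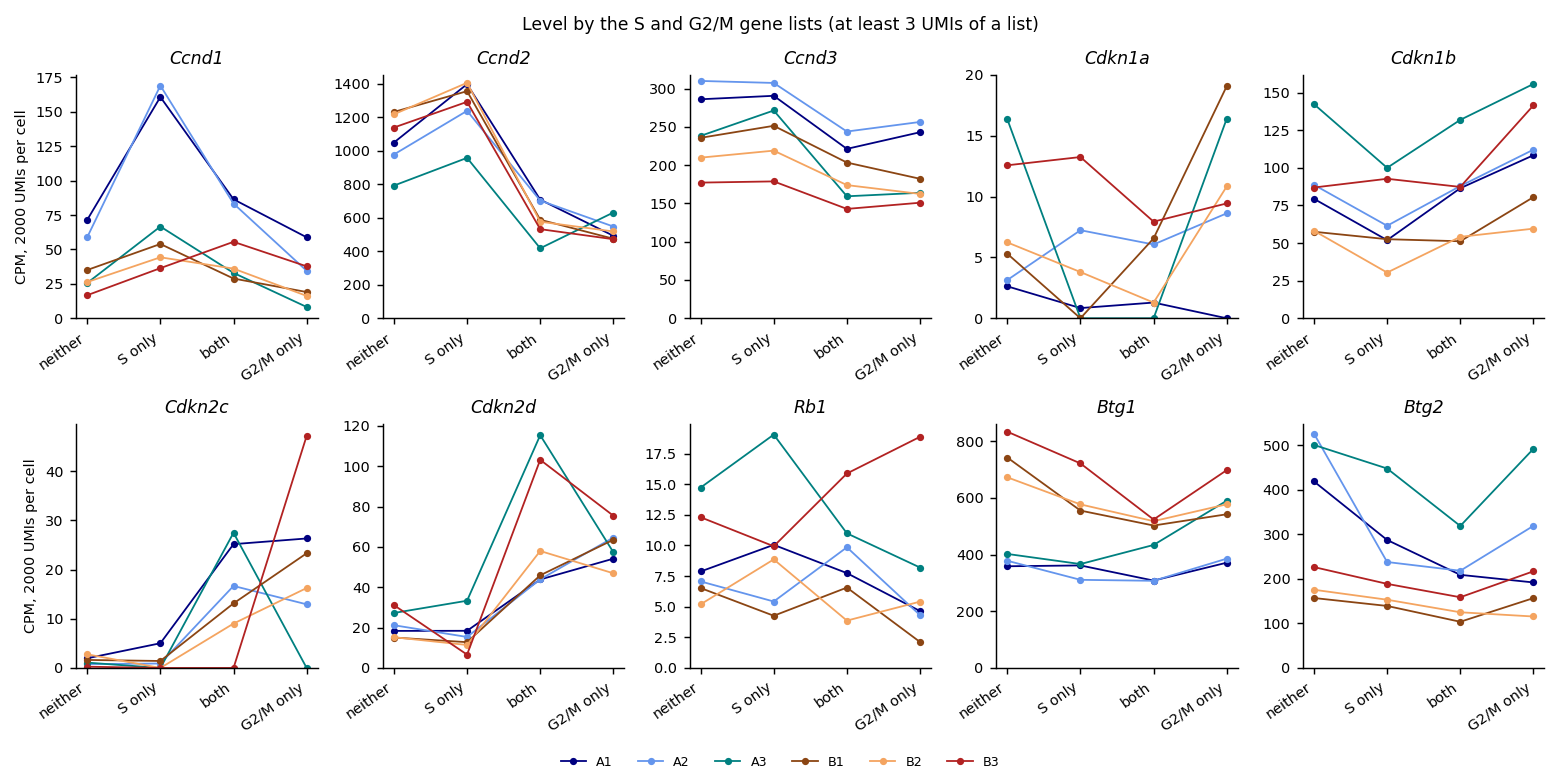
Level of each gene (y axis, CPM with every cell thinned to 2000 UMIs, from 0) in cells with neither list, the S list only, both lists or the G2/M list only (x axis), 1 line per barcode set with no error bars. Ccnd1 and Ccnd2 peak in S-only cells in most sets, Cdkn1b is lowest there in A1, A2, A3 and B2, and Cdkn2d is above its S-only level in the G2/M-only cells of all 6 sets.

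The level of the genes was then taken by Pdgfra UMIs, and no member with 20 CPM reached 1.5-fold. Thinned cells held 0 Pdgfra UMIs (8553 cells), 1 (2457) or at least 2 (1579, of which 907 had exactly 2), with median UMIs before thinning of 5947, 5222 and 5439. The 0 calls among the 7 genes between at least 2 and 0 UMIs stand beside 4.03% of 6916 genes that were higher and 4.03% that were lower. The median of the 7 was 0.02, and 0.01 over all genes. Summed epithelial markers were at 73.4, 112 and 242 CPM with 0, 1 and at least 2 Pdgfra UMIs, and the part of A3 and B3, which give most of the last class, in this was not separated.

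Cdkn1b was higher with at least 2 Pdgfra UMIs in 6 of 6 sets: from 77.8 to 92.8 CPM in A1, 78.9 to 89.3 in A2, 115 to 152 in A3, 55.6 to 101 in B1, 47.4 to 66.4 in B2 and 84.6 to 93.5 in B3. The pooled log2 ratio was 0.32 (0.11 to 0.53), and only 1 set had an interval above 0. In cells without cycling UMIs it was 0.43 (0.19 to 0.67), again higher in 6 of 6 sets, where 3.87% of genes passed 1.5-fold upward and 2.82% downward. Its relative Cdkn1c was higher as well, with a ratio of 0.51 (0.46 to 0.57) and 6 of 6 sets higher.

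Ccnd1 was lower with at least 2 Pdgfra UMIs in 6 of 6 sets at this depth (-0.43, -0.78 to -0.08). Those cells gave 94 Ccnd1 UMIs in all, from 4 UMIs in B2 to 34 in A3. In A2 the level went from 94.5 to 35.7 CPM and in A1 only from 99.0 to 95.8 CPM. Only 1 set, A2, had an interval below 0, and in cells without cycling UMIs the ratio was -0.31 (-0.70 to 0.07), lower in 5 of 6 sets. With the set A1 left out the ratio was -0.70 and passed 1.5-fold. A second random thinning to 2000 UMIs gave 0.07 (-0.27 to 0.40), so no direction is read for Ccnd1. The ratio was -0.13 (-0.35 to 0.10) at 3000 UMIs in all sets and 0.10 (-0.04 to 0.24) at 6000 UMIs in ending A, where the sets and the cells with 2 Pdgfra UMIs also differ. Rb1 was at 16.1 against 7.19 CPM (0.84, 0.21 to 1.47), from 51 and 123 UMIs. Its ratio was 0.37 in the second thinning and 0.04 in ending A at 6000 UMIs.

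The other members differed little by Pdgfra UMIs. Ccnd2 had a ratio of 0.02 (-0.05 to 0.08), Ccnd3 of -0.01 (-0.15 to 0.14), Btg1 of 0.13 (0.04 to 0.21) and Btg2 of 0.06 (-0.06 to 0.19). The intervals of Ccnd2, Ccnd3, Btg1 and Btg2 lay within 1.5-fold. For Cdkn1a (0.03, -0.60 to 0.65), Cdkn2c (-0.46, -1.46 to 0.55) and Cdkn2d (-0.09, -0.47 to 0.28) the counts bound a difference less closely, and those of Cdkn1a and Cdkn2c reach past 1.5-fold. In the network 1 of 24 genes was higher, Rbl2 (0.61), and 6 were lower, led by Ccne2 (-1.16), Ccna2 (-0.80), Cdkn3 (-0.75) and Ccne1 (-0.72). In cells without cycling UMIs the count lower was 1 of 20, Ccne2 (-0.68).

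**Figure D4:**
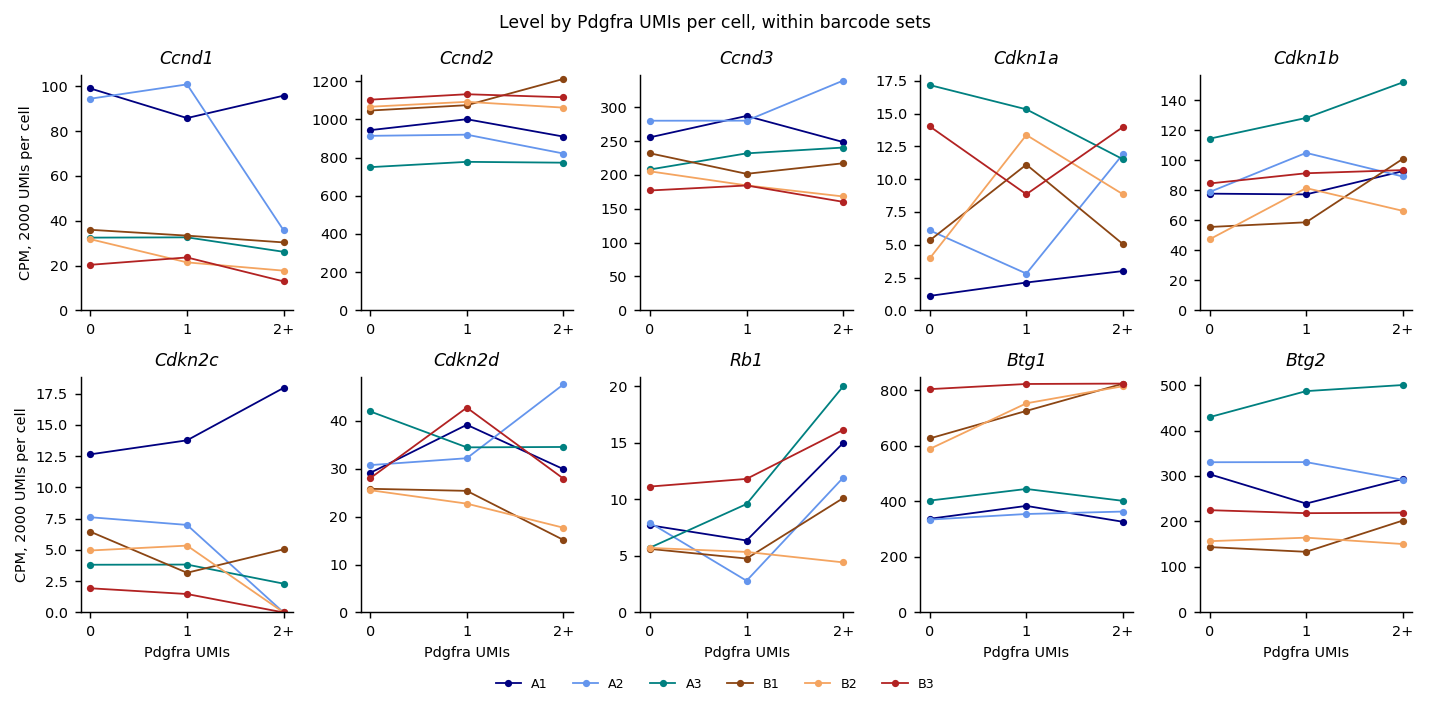
Level of each gene (y axis, CPM with every cell thinned to 2000 UMIs, from 0) in cells with 0, 1 or at least 2 Pdgfra UMIs (x axis), 1 line per barcode set with no error bars. The lines of Ccnd2 and Ccnd3 are close to flat, those of Cdkn1b end above their start in all 6 sets, and the rare genes Cdkn1a, Cdkn2c and Rb1 rest on few UMIs.

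Btg2 is an immediate early gene as well as a p53 target, and Cdkn1a is a classical p53 target, so both were set against lists that leave them out. Within each set, cells above the set's median of 15 immediate early genes (Fos, Jun, Egr1 and others, which tissue dissociation is known to raise) were compared with the rest. Btg2 stood at 383 CPM above the median and 137 at or below it, or 1.52 on the log2 scale (1.44 to 1.60), and was higher in 6 of 6 sets. The levels at or below and above the median were 136 and 458 CPM in A1, 174 and 519 in A2, 222 and 823 in A3, 88.8 and 203 in B1, 94.0 and 225 in B2, and 145 and 326 in B3. It was the 1 call among the 7 genes, where 1.13% of 6446 genes were higher and 0.109% lower. In cells without cycling UMIs the ratio was 1.54 (1.45 to 1.64), where 1.16% of genes were higher and 0.251% lower.

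Btg1 had a ratio of 0.23 (0.19 to 0.28) on the same division. Ccnd3 (0.24), Ccnd2 (0.12), Cdkn2d (0.43, 0.22 to 0.64) and Cdkn2c (0.75, 0.29 to 1.21) were also higher above the median and Ccnd1 lower (-0.27, -0.42 to -0.11), while the intervals of Cdkn1b (0.08), Cdkn1a (-0.19) and Rb1 (-0.18) spanned 0. By set, Ccnd2 had an interval above 0 in 3 sets and below 0 in 1, A2 (-0.10). Cdkn2c and Cdkn2d each had an interval above 0 in only 1 set. The summed level of the immediate early genes was 4622, 4454 and 4627 CPM in A1, A2 and A3 and 3272, 3226 and 3671 CPM in B1, B2 and B3. It was therefore about level between A3 and the other sets of ending A, where Btg2 was 0.75 higher in A3, and higher in B3, where Btg2 was 0.49 higher.

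Cells above their set's median of 18 p53 targets had more Cdkn1a, at 12.7 against 5.07 CPM (1.17, 0.72 to 1.62), from 74 and 98 UMIs. It was higher in 5 of 6 sets, with intervals above 0 in A3 and B3 only. Btg2 had a ratio of -0.04 (-0.13 to 0.04), within 1.5-fold, and Ccnd1 of -0.22 (-0.41 to -0.02). The intervals of the other 7 members spanned 0, with ratios from -0.37 for Cdkn2c to 0.29 for Rb1. No gene of the 7 was called, and 0.046% of 6519 genes were called higher and 0% lower. The summed p53 list was highest in set 3 of each ending, at 600 CPM in A3 against 436 and 497, and at 561 CPM in B3 against 374 and 366. The part of this in the higher Cdkn1a of A3 and B3 was not tested.

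Pairs of members were compared by dividing cells on a UMI of one gene and taking the level of another, in 90 ordered pairs, pooled over sets. Cdkn2c and Cdkn2d UMIs were each more frequent in cells with the other, though only 22 cells had both: Cdkn2d was at 88.4 CPM in the 147 cells with a Cdkn2c UMI and 29.0 in the rest (1.63, 1.06 to 2.21), and Cdkn2c was 1.68 (1.07 to 2.30) higher in the 705 cells with Cdkn2d. Among cells without cycling UMIs, none of the 27 with Cdkn2c and the 335 with Cdkn2d had both. So few cells can have no overlap even if the genes are unrelated, so no direction is read there. Over all genes, 14.5% were at least 1.5-fold higher and 11.6% lower in cells with Cdkn2c, and 3.16% and 0.919% in cells with Cdkn2d. Ccnd1 was at 58.6 CPM in cells with a Ccnd2 UMI and 32.1 without (0.96, 0.74 to 1.18), and this was 0.89 (0.58 to 1.20) in cells without cycling UMIs. Of 6518 genes, 0.107% were at least 1.5-fold higher in cells with Ccnd2 and 2.33% lower. Cells with Ccnd2 had less Cdkn2c (-1.38, -1.84 to -0.92) and less Cdkn2d (-0.68, -0.90 to -0.46). In cells without cycling UMIs these ratios were 0.29 (-1.29 to 1.88) for Cdkn2c and 0.02 (-0.38 to 0.42) for Cdkn2d.

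**Figure D5:**
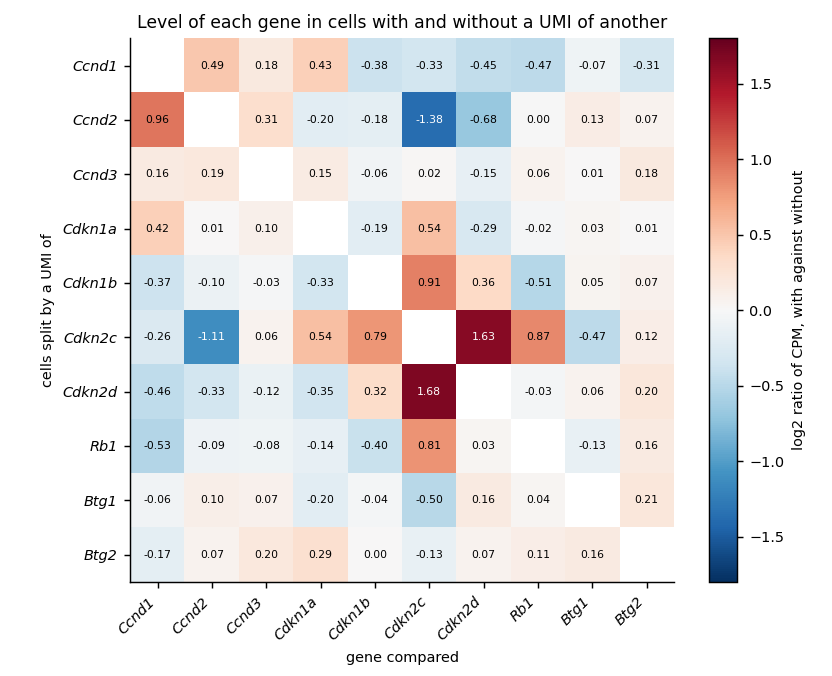
Log2 ratio of CPM (color, with the value printed) of each gene (x axis) in cells with against without a UMI of another gene (y axis), thinned to 2000 UMIs and pooled over the 6 barcode sets. Cdkn2c with Cdkn2d (1.63 and 1.68) and Ccnd1 in cells with Ccnd2 (0.96) are the most positive, and Cdkn2c with Ccnd2 (-1.38 and -1.11) the most negative.

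Likeness to other genes was described over 34 strata (set, cycling UMI or none, and Pdgfra class, of at least 20 cells), as Pearson's r of log2(CPM + 5) centred within an ending, among 3268 genes of at least 50 CPM. The strata share libraries and no p is given. Btg2 was most like Ier3 (0.87), Klf9 (0.85) and Mmp2 (0.84), of which Ier3 is on the immediate early list. Cdkn1b was most like Klf13 (0.82), Rbms1 (0.80) and Id1 (0.78), and Btg1 most like Synpo2, Plekhh2 and Kif1b (0.81, 0.81 and 0.80). Ccnd2 was most like Aprt (0.74), Gabarap (0.73) and Arhgef25 (0.72), and Ccnd3 most like Rtraf (0.71), Atp5d and Abhd17a (both 0.69). Among the members, taken without this CPM minimum, Ccnd2 ran against Cdkn2c and Cdkn2d (r of -0.72 and -0.71), and Btg1 with Btg2 (0.59). Next in size were Ccnd1 with Btg1 (-0.58), Cdkn2c with Cdkn2d (0.57) and Cdkn2c with Btg2 (-0.54). The strata are themselves divided by cycling UMIs, across which Ccnd2 fell and Cdkn2c and Cdkn2d rose. The r values of these 3 genes are therefore not separate from that result.

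Some counts carry an uncertainty of annotation, since use of strand in the counting is not given in the sources used here. In the GENCODE annotation of GRCm38, LTO1 overlaps the 3′ end of Ccnd1, Gm43126 that of Ccnd2, Bysl that of Ccnd3, and Rcbtb2 and Gm17233 that of Rb1. LTO1 had 12.6 to 16.6 CPM in ending A and, under its older symbol Oraov1, 14.1 to 17.0 CPM in ending B, beside 21.2 CPM of Ccnd1 in B3. Rcbtb2 had 39.0 to 83.2 CPM in ending A, above Rb1 itself, and Bysl had 10.2 to 22.8 CPM over the 6 sets, well under Ccnd3. The annotation also holds the pseudogenes Btg1-ps1, Btg1-ps2 and Ccnd3-ps, whose reads could be shared with their parent genes. Free RNA in droplets could not be gauged from cells lacking these genes, as only 4 cells had at least 3 Ptprc UMIs and no class of cells free of them was defined.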

How the data were processed

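One matrix of deposited UMI counts per gene and cell was used, pooled over all 6 samples. The submitters' processing notes name Cell Ranger 2.1.1, Seurat and mm10, with no role given to each. The authors deposited whole-number counts that are not normalized. Total depth was 100735249 UMIs, and cells held 1501 to 23996 UMIs.

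Cells with under 1000 genes (108) or over 5% mitochondrial UMIs (367) were left out, as were 60 doublets called per set by Scrublet in scanpy 1.11.5. These made 0.457% of cells, a share so low that the caller may have failed, and doublets may remain. CPM is UMIs per 1000000 UMIs of a group. For comparisons by cycling, Pdgfra, S and G2/M, immediate early or p53 UMIs, each cell was thinned to 2000 UMIs, and 41 shallower cells were left out. Ratios of sums between sets have exact conditional binomial intervals, ratios pooled over sets are Mantel-Haenszel rate ratios, CPM has exact Poisson intervals and shares have exact binomial ones, all at 95%. PCR and capture are not in these intervals. The ratio and thinning steps were tested on simulated data. Promoter windows are RefSeq's (GRCm38.p6) and gene positions GENCODE's (GRCm38).

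The genes and every list were chosen with earlier results of these data known. The rule for named genes was all 10 members in every comparison (between stages and in pairs of members, some are given only in the plots), of the other G1/S genes up to 4 of the largest calls in each direction, and as most alike 3 genes for each member of at least 50 CPM. Cdkn1c, Cdk4, Cdkn2a, Cdkn2b and the genes overlapping a member were named beyond this rule, after their values were seen. Alternatives were other cell filters, thinning depths, folds, minimum CPM, cycling and Pdgfra definitions, centring, equal weights and leaving out each set.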

Additional observations from a re-analysis of the deposited data

Results flagged for a closer look

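Ccnd2 is listed here because A3 and B3 moved opposite ways: the log2 ratio was -0.26 in A3 against A1 and A2, with A3 below both, and 0.093 in B3 against B1 and B2, with B3 above both. The difference between the endings was not tested. The B3 ratio was -0.12 in cells without Mki67 or Top2a UMIs and -0.07 over strata of Pdgfra and cycling UMIs, so the opposite direction was seen over all cells and not in those matched comparisons.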

How the results depend on the processing

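No call changed sign under an alternative. Counts of calls moved as follows, and the cause was not tested. For A3, the count higher went from 2 to 0 at 2-fold, to 4 with no CPM minimum and to 1 over Pdgfra and cycling strata; it stayed at 2 in cells without cycling UMIs with Cdkn2d in place of Btg2, and the count lower from 1 to 2 with no CPM minimum. For B3, the count higher went from 1 to 0 when centred on the median gene and at 2-fold, to 3 with no CPM minimum and to 2 in cells without cycling UMIs, and the count lower from 1 to 0 at 2-fold and to 2 with no CPM minimum. For cycling, the count higher went from 1 to 2 with no CPM minimum, with Mki67 alone and with at least 2 cycling UMIs, and the count lower from 1 to 0 at 2-fold, to 2 with Mki67 alone (Ccnd1 added) and to 2 with at least 2 cycling UMIs (Btg2 added). In ending A at 6000 UMIs the 1 gene called lower was Btg2 in place of Ccnd2, whose ratio was -0.52. For Pdgfra, the count higher went from 0 to 1 (Rb1) with no CPM minimum and with at least 3 Pdgfra UMIs, and the count lower ranged from 0 to 1 over the sets left out in turn, with 1 (Ccnd1) without the set A1. With no CPM minimum the shares of all genes were larger: 28.1% were higher and 28.7% lower in A3, 27.9% and 23.8% in B3, 14.2% and 21.3% by cycling and 15.9% and 24.7% by Pdgfra. At 2-fold they were 9.64% and 5.65% in A3, 8.64% and 5.38% in B3 and 4.32% and 0.444% by cycling. Centred on the median gene they were 15.8% and 14.8% in B3. By cycling they were 5.88% and 3.26% with Mki67 alone, 8.75% and 6.49% with at least 2 cycling UMIs, and 5.93% and 2.85% in ending A at 6000 UMIs. By Pdgfra they were 9.09% and 7.73% with at least 3 Pdgfra UMIs, and 4.62% and 5.33% without the set A1. Over single genes, 80 alternative values moved beyond the main interval and 540 did not. With no call, the sign of Ccnd1, Ccnd2, Ccnd3, Cdkn1a, Cdkn2d and Btg2 by Pdgfra, of Cdkn1a and Rb1 by cycling, of Ccnd2 in B3 and of Cdkn2d in A3 varied among alternatives. The alternatives added after seeing the data were the strata, a second thinning, 6000 UMIs in ending A and leaving out the deepest 5% of cells. A mean over cells equals the main value for thinned cells and was not run there. No paired analysis was possible because cells could not be assigned to samples. Depth limits Cdkn1a, Cdkn2c and Rb1 most.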

Other observations

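Among cells at 2000 UMIs, the D cyclin makeup also differed by cycling UMIs within an ending. In ending B, Ccnd2 gave 83.8% of the D cyclin UMIs in cells without a Mki67 or Top2a UMI (exact binomial interval 83.2% to 84.4%) and 76.0% in cells with one (74.5% to 77.5%), while Ccnd3 gave 14.3% and 20.7%. In ending A, Ccnd2 gave 73.9% (73.0% to 74.8%) and 69.3% (67.9% to 70.6%), and Ccnd3 19.8% and 23.7%. Ccnd1 gave 1.92% and 3.31% in ending B and 6.31% and 6.98% in ending A. Each share pools 3 barcode sets that differ in cycling cells.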
